A study of Mus musculus with 12 samples.

Results

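The difference between B16F10 cells with the C435A form of IRF7 and B16F10 cells with wild-type IRF7 was measured over both treatments together, with interferon alpha (IFNα) as a covariate. B16F10 is a transplantable mouse melanoma line. The groups were mutant control (genotype IRF7 C435A, no IFNα) and mutant IFNα (the same cells given IFNα), and they were set against wild-type control and wild-type IFNα. Each group had 3 libraries, so 6 mutant libraries stood against 6 wild-type libraries, which are all 12 libraries of the series. How the C435A cells were made, whether they are 1 clone, which wild-type cells were their parent and the dose and time of IFNα were not found in the labels or files. A difference between the lines therefore cannot be told apart from a difference between clones. Separate cultures are not named by the labels either, and the p-values below therefore measure only the spread between these libraries, which may be technical.

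IRF7 is a transcription factor that is activated after viral nucleic acids are sensed and then switches on type I interferon genes. The interferons act through their receptor and STAT factors on interferon-stimulated genes, and Irf7 is itself one of them, which makes a feedback loop. In tumour cells the pathway is known for raising antigen presentation and chemokines that attract T cells. The series title names S-nitrosylation of IRF7, which is the attachment of nitric oxide to a cysteine. The C435A substitution puts alanine in place of a cysteine.

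The codon that C435A names is, in the mouse reference transcript ENSMUST00000026571.10, a cysteine codon in exon 10 of 10, on the minus strand of chromosome 7 at 141263294 to 141263296 in GRCm38. It is shown here because it is the site at which the lines are said to differ, with the codon in capitals and 5 codons on each side, in the direction of the transcript.
Irf7, reference: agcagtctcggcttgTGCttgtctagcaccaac
The deposited table counts reads per gene and holds no alleles, so the substitution itself was not observed. The deposited interval of Irf7 does not contain this GRCm38 position. Gene positions below are therefore those of the table, whose build is not stated in its header, and were not converted.

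Irf7 was the first gene examined, as the gene that carries the substitution (ENSMUSG00000025498, chromosome 7, 140842619 to 140846394). It was measured at 4.99, 4.44 and 5.19 FPKM in the mutant controls and 4.63, 4.69 and 7.23 FPKM in mutant IFNα, against 11.6, 12.8 and 12.5 FPKM in the wild-type controls and 8.84, 9.87 and 8.45 FPKM in wild-type IFNα. Every mutant library lay below every wild-type library. Irf7 fell by 0.93 ± 0.14 on the log2 scale (SE, adjusted p = 0.00265, by edgeR's quasi-likelihood test and adjusted over all 17590 genes by Benjamini-Hochberg, n = 6 libraries a line). Each test was also repeated with 1 library left out at a time, and Irf7 passed in all 12 of these leave-one-out fits. The difference was −1.24 in the controls alone and −0.62 with IFNα alone.

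Transcripts of lung, such as the surfactant gene Sftpc and the club cell gene Scgb1a1, were present in 8 of the 12 libraries, 4 of each line. The summed level of 8 lung genes was 43.3 to 66.9 CPM (counts scaled to the TMM-adjusted library size) in those 8. It was 0.0424 to 0.228 CPM in mutant IFNα 1 and 2 and wild-type control 2 and 3. The 4 mutant libraries with lung transcripts were 3 controls and 1 with IFNα, and the 4 wild-type ones were 1 control and 3 with IFNα. In a fit of those 8 libraries alone Irf7 stood at −0.71 and did not pass (adjusted p = 0.0839). With a term for the lung transcripts in all 12 libraries it stood at −0.92 and passed (adjusted p = 0.00417). Of 22 lung epithelium genes tested, 0 passed between the lines by edgeR, at a median log2 fold change of 0.28, which was 1.58 in the controls alone and −0.85 with IFNα alone. Library totals ran from 60511573 to 75927461 counts. The library least like its replicates was mutant IFNα 3, for which log2 ratios to mutant IFNα 1 and 2 had SDs of 0.436 and 0.434 across 6318 abundant genes. The 8 melanocyte markers, among them Mlana, Pmel, Dct and Sox10, were present in all 12 libraries, at a summed 7168 to 8159 CPM in the mutant and 8014 to 9583 CPM in the wild type.

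Of 17590 genes tested, 483 differed between the lines (2.75%). In the mutant 316 were higher (1.8%) and 167 were lower (0.949%). A difference of at least 2-fold was found in 91 genes (0.517%), 56 higher (0.318%) and 35 lower (0.199%). DESeq2 called 1146 genes (6.52%). In 492 genes the 6 mutant libraries did not overlap the 6 wild-type libraries (2.8%), with the mutant above in 320 (1.82%) and below in 172 (0.978%). The share of higher genes among the calls, 65.4%, was 45% with library totals as scaling and 44.5% with limma on log2(FPKM + 1), which called 467 of 10094 genes (4.63%), and the median of all genes shifted by −0.09 under both. It was 47.8% in the 8 libraries with lung transcripts alone. In 7 of the 12 leave-one-out fits the count of calls was lower than 483 by a factor of more than 1.5. It was 294, 294 and 226 without mutant control 1, 2 and 3, 295 without mutant IFNα 1, 300 without wild-type control 3, and 200 and 290 without wild-type IFNα 1 and 3.

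Among genes with a mean of at least 5 FPKM in the higher line and no overlap between the lines, those with the largest differences included Nqo1, Fabp3 and Batf, higher in the mutant, and Pycard and Mbp, lower. Mgll, at a lower level, was called in each treatment alone and is described with them. Nqo1 encodes a quinone reductase that the antioxidant factor NRF2 is known to induce (ENSMUSG00000003849, chromosome 8, 108114857 to 108129838). Its level was 7.22, 7.56 and 5.69 FPKM in the mutant controls and 8.48, 8.02 and 8.24 FPKM in mutant IFNα, against 1.09, 0.662 and 0.489 FPKM in the wild-type controls and 0.573, 1.08 and 0.463 FPKM in wild-type IFNα. The groups lay far apart, with a log2 fold change of 3.44 ± 0.239 (SE, adjusted p = 9.72e-07), which is 10.9-fold. The difference was 3.25 in the controls alone and 3.62 with IFNα alone.

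Fabp3, a carrier of long-chain fatty acids, was measured at 49.9, 40.3 and 36.6 FPKM in the mutant controls and 35.9, 33.4 and 30.3 FPKM in mutant IFNα, against 14.8, 10.7 and 13.2 FPKM in the wild-type controls and 9.53, 9.18 and 9.75 FPKM in wild-type IFNα (ENSMUSG00000028773, chromosome 4, 130202388 to 130209256). No library of one line reached the range of the other, and the log2 fold change was 1.85 ± 0.106 (SE, adjusted p = 1.01e-07). Batf is an AP-1 family partner of IRF4 and IRF8 in lymphocytes (ENSMUSG00000034266, chromosome 12, 85733443 to 85755861). It was at 6.11, 6.72 and 6.68 FPKM in the mutant controls and 6.22, 6.14 and 6.16 FPKM in mutant IFNα, against 2.55, 3.27 and 2.28 FPKM in the wild-type controls and 2.62, 2.43 and 2.9 FPKM in wild-type IFNα. The lowest mutant library lay above the highest wild-type library, with a log2 fold change of 1.33 ± 0.122 (SE, adjusted p = 3.27e-05).

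Pycard encodes ASC, the adaptor through which inflammasome sensors recruit caspase-1 (ENSMUSG00000030793, chromosome 7, 127588880 to 127593039). It was at 0.385, 0.414 and 0.455 FPKM in the mutant controls and 0.289, 0.48 and 0.175 FPKM in mutant IFNα, against 7.97, 7.26 and 5.94 FPKM in the wild-type controls and 6.03, 7.7 and 8.54 FPKM in wild-type IFNα. All 6 mutant libraries were near 0 and all 6 wild-type libraries were far above them. It fell by 4.23 ± 0.217 on the log2 scale (SE, adjusted p = 3.19e-08), 18.7-fold. Mgll encodes monoacylglycerol lipase, which releases fatty acids and breaks down the endocannabinoid 2-arachidonoylglycerol (ENSMUSG00000033174, chromosome 6, 88701394 to 88805342). Its level was 1.09, 1.04 and 0.82 FPKM in the mutant controls and 0.894, 1.07 and 0.89 FPKM in mutant IFNα, against 3.39, 3.98 and 4.38 FPKM in the wild-type controls and 4.36, 3.56 and 2.85 FPKM in wild-type IFNα. The lines did not overlap, with a log2 fold change of −1.85 ± 0.11 (SE, adjusted p = 1.43e-07).

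Mbp, the gene of myelin basic protein, was at 11.1, 11.6 and 11.7 FPKM in the mutant controls and 13.8, 12.1 and 14.7 FPKM in mutant IFNα, against 36.9, 46.6 and 51.5 FPKM in the wild-type controls and 51.6, 41 and 45.9 FPKM in wild-type IFNα (ENSMUSG00000041607, chromosome 18, 82493271 to 82603762). It did not overlap either and had a log2 fold change of −1.77 ± 0.0894 (SE, adjusted p = 3.19e-08).

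**Figure D1:**
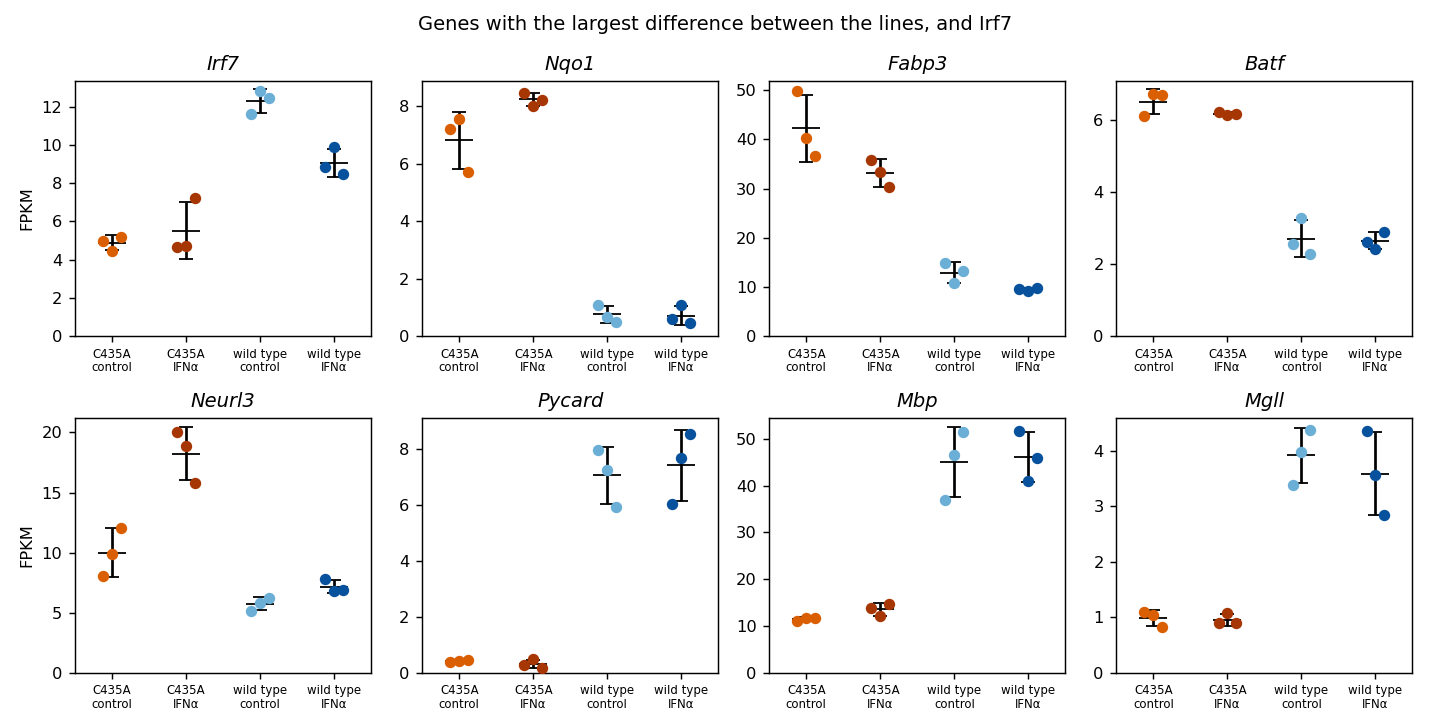
FPKM of 8 genes by group, with each point 1 library and the black bar and whiskers the mean and SD of 3 libraries. Nqo1, Fabp3, Batf and Neurl3 are higher in the C435A groups, and Irf7, Pycard, Mbp and Mgll are lower, with no overlap between the 6 libraries of each line.

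The rest of the largest increases, by the rule for named genes, ran from Neurl3 to Epb41l4aos. Of 114 genes that met its level and overlap conditions on the higher side, 15 were taken. Neurl3, a ubiquitin ligase known to respond to inflammatory stimuli, stood at 8.05, 9.9 and 12.1 FPKM in the mutant controls and 20.1, 18.9 and 15.8 FPKM in mutant IFNα, against 5.16, 5.83 and 6.22 FPKM in the wild-type controls and 7.78, 6.8 and 6.87 FPKM in wild-type IFNα. Its log2 fold change was 1.18 ± 0.121 (SE, adjusted p = 0.000133). Cort, the neuropeptide cortistatin, was at 13.5 to 25.5 FPKM (median 18.8) in the mutant, against 7.57 to 11.6 FPKM (median 9.43) in the wild type, with a log2 fold change of 1.07 ± 0.148 (SE, adjusted p = 0.00146). For Acsbg1, an acyl-CoA synthetase, the levels were 4.75 to 6.39 FPKM (median 6.07) in the mutant, against 2.51 to 4.49 FPKM (median 3.43) in the wild type, a log2 fold change of 0.86 ± 0.117 (SE, adjusted p = 0.00146). Apod, a lipid-binding lipocalin, was at 10.4 to 13.5 FPKM (median 11.9) in the mutant, against 6.05 to 8.74 FPKM (median 7.43) in the wild type, with 0.79 ± 0.0872 (SE, adjusted p = 0.000233). In Ndufb4c the log2 fold change was 0.73 ± 0.172 (SE, adjusted p = 0.0359), and the call was lost without mutant control 2 and 3, mutant IFNα 3 or else wild-type IFNα 1 and 3 (0.60 to 0.79 over the 12 leave-one-out fits). Ndufb4c resembles Ndufb4, a complex I subunit, and reads may be split between them, so its value is uncertain. Epb41l4aos, an RNA antisense to Epb41l4a, stood at 0.67 (adjusted p = 0.00428). How the counting used strand is not given, so reads of the antisense RNA and its partner cannot be told apart. The other members of the 15 belong to the interferon and antigen presentation groups described further on.

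Among the decreases 34 genes met the same conditions and 15 were taken. Mgst1, a membrane-bound glutathione transferase, was at 8.44 to 12.6 FPKM (median 10.1) in the mutant, against 16.5 to 26.2 FPKM (median 21.2) in the wild type, with a log2 fold change of −0.96 ± 0.14 (SE, adjusted p = 0.0021). Vac14 is the scaffold of the PIKfyve lipid kinase complex on endosomes. It was measured at 3.19, 3.75 and 3.47 FPKM in the mutant controls and 3.94, 3.97 and 5.23 FPKM in mutant IFNα, against 6.09, 7.84 and 9.04 FPKM in the wild-type controls and 8.43, 7.28 and 7.56 FPKM in wild-type IFNα. All mutant libraries lay below the wild-type ones, and the log2 fold change was −0.88 ± 0.105 (SE, adjusted p = 0.000396). Bfsp2, a lens filament protein, was at 27.1 to 42.2 FPKM (median 35.5) in the mutant, against 49.4 to 92.8 FPKM (median 63) in the wild type, with −0.79 ± 0.0828 (SE, adjusted p = 0.000153). Clu, the extracellular chaperone clusterin, was at 5.83 to 7.92 FPKM (median 6.97) in the mutant, against 10.4 to 16.6 FPKM (median 11.9) in the wild type, with −0.73 ± 0.0824 (SE, adjusted p = 0.000291). Nes, the intermediate filament nestin of neural progenitors, was at 4.47 to 6.34 FPKM (median 5.39) in the mutant, against 7.3 to 12 FPKM (median 8.93) in the wild type, with −0.65 ± 0.0915 (SE, adjusted p = 0.00158). Plpp1, a lipid phosphate phosphatase, stood at −0.63 (adjusted p = 0.0147).

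Several of these smaller decreases depended on single libraries. Ugp2, which makes UDP-glucose, stood at −0.61 (adjusted p = 0.035) and passed only without mutant IFNα 1 and 3 or else wild-type control 3 among the 12 leave-one-out fits (−0.71 to −0.51). Tspan17, a tetraspanin, stood at −0.47 (adjusted p = 0.033) and passed only without mutant IFNα 2 and 3, wild-type control 3 or else wild-type IFNα 1 and 2 among the 12 leave-one-out fits (−0.53 to −0.38). Mgat5, a glycosyltransferase of branched N-glycans, stood at −0.51 (adjusted p = 0.023) and was lost without mutant control 1, 2 and 3, mutant IFNα 1 or else wild-type IFNα 1 (−0.58 to −0.44 over the 12 leave-one-out fits). Eif2c5, listed on chromosome X, stood at −0.57 (adjusted p = 0.0221) and was lost without mutant control 3 or else mutant IFNα 2 (−0.62 to −0.48 over the 12 leave-one-out fits). Akr1c13, an aldo-keto reductase with close copies whose reads may be shared, stood at −0.45 (adjusted p = 0.0246) and was lost without mutant control 3, mutant IFNα 1 and 2 or else wild-type control 1 (−0.51 to −0.40 over the 12 leave-one-out fits). Sqle, squalene epoxidase of cholesterol synthesis, stood at −0.51 (adjusted p = 0.00629) and passed in all 12 leave-one-out fits.

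The controls alone and the IFNα libraries alone share no library, so that genes called in one could be looked up in the other. In the controls alone 26 genes passed (0.148%). With IFNα 25 of those 26 had the same direction, 20 of them at an unadjusted p under 0.05, and 7 also passed there. With IFNα alone 13 genes passed (0.0739%). In the controls all 13 had the same direction, 12 at an unadjusted p under 0.05, and 7 passed. Over all 17590 genes 61.1% had the same direction, and the Spearman correlation of the log2 fold changes across genes was 0.239, where genes are not independent replicates. The 7 genes called in both were Nqo1, Fabp3, Batf, Pycard, Mgll, Mbp and Lhfpl4. Lhfpl4, which clusters inhibitory GABA receptors at synapses in neurons and is named here after seeing its values, had 3 to 16 counts in the mutant libraries and 174 to 332 in the wild-type libraries.

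**Figure D2:**
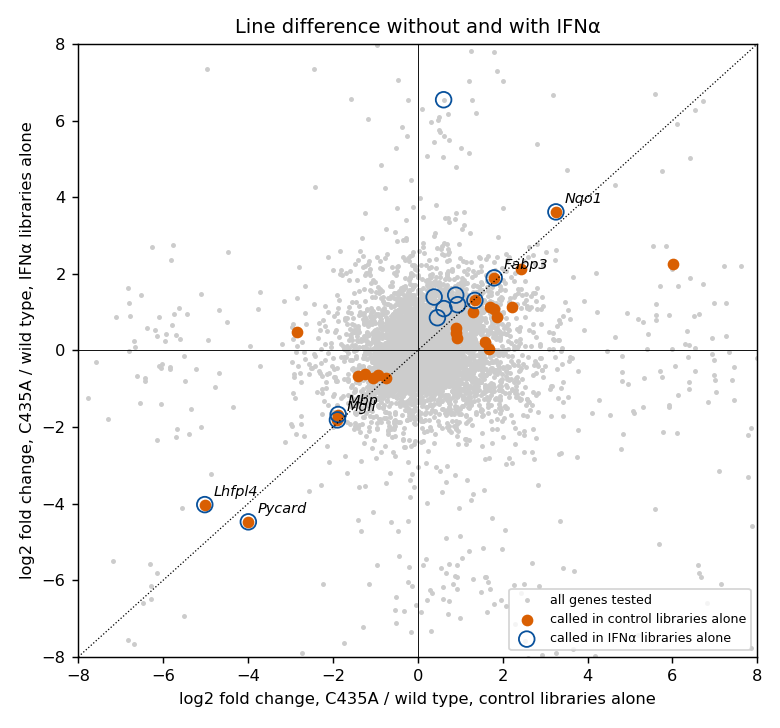
Log2 fold change of C435A over wild type in the control libraries alone (x axis) and in the IFNα libraries alone (y axis), 1 point a gene, with 22 genes beyond the axis ends at ±8 not drawn. Filled points passed in the controls alone and open rings with IFNα alone, and the dotted line marks equal values. Of the 7 genes with both marks, Nqo1 lies at 3.25 and 3.62 and Pycard at −3.99 and −4.48. Lhfpl4, at −5.02 and −4.03, lies further from that line.

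These single-treatment counts moved with single libraries. Without wild-type control 1, the only control of that line with lung transcripts, 208 genes passed in the controls. In that fit every mutant control held lung transcripts and no wild-type control did, so line and lung transcripts cannot be told apart there. Without mutant control 1, 2 or 3 or wild-type control 2 the counts were 12, 10, 15 and 13. With IFNα the count was 139 without mutant IFNα 3, and 7, 7 and 8 without wild-type IFNα 1, 2 and 3. Mutant IFNα 3 was the only library of its group with lung transcripts, and every wild-type IFNα library held them. Line and lung transcripts therefore cannot be told apart in the fit with 139 calls either. A test of whether the line difference itself differed between treatments called 0 of 17590 genes by edgeR (0%), with 909 at an unadjusted p under 0.05, and DESeq2 called 15. The interaction for Irf7 was 0.61 ± 0.235 (adjusted p = 0.916) and for Neurl3 0.54 ± 0.199 (adjusted p = 0.916). Every mutant control and wild-type IFNα library held lung transcripts, but only 1 wild-type control and 1 mutant IFNα library did. The interaction therefore cannot be cleanly told apart from the lung transcripts.

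Around Irf7, the interferon genes and their regulators moved in different directions. For the counts of each list below, the shares over all genes tested were 1.8% higher and 0.949% lower. Of 12 genes tested in the list of interferon regulatory factors, 1 rose and 1 fell. Their median log2 fold change was 0.07 against −0.00 over all genes tested. The list also holds Irf2bp1, Irf2bp2 and Irf2bpl, which are not such factors themselves. Irf1, an activator of class I genes, was at 11.2, 9.7 and 10.5 FPKM in the mutant controls and 16.6, 17.5 and 16.8 FPKM in mutant IFNα, against 7.58, 8.18 and 9.08 FPKM in the wild-type controls and 15.9, 12.4 and 12.8 FPKM in wild-type IFNα. The lines did not overlap within a treatment but did across treatments, and Irf1 rose by 0.43 ± 0.0683 (SE, adjusted p = 0.00447). Irf3, the factor that starts the type I interferon response, stood at 0.13 (adjusted p = 0.448), Irf5 at 0.35 (adjusted p = 0.137) and Irf9, a DNA-binding partner of STAT factors, at 0.02 (adjusted p = 0.913). Of 26 genes of interferon receptors and JAK-STAT signalling 0 rose and 1 fell, at a median of 0.02. That gene was the kinase Jak1, at −0.33 (adjusted p = 0.0448), which passed only without mutant IFNα 3 among the 12 leave-one-out fits (−0.36 to −0.29). The receptor chains Ifnar1 and Ifnar2 stood at 0.02 (adjusted p = 0.927) and 0.19 (adjusted p = 0.219), and Stat2 at 0.07 (adjusted p = 0.75).

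Of 21 interferon genes listed, 3 passed the filter on low counts. Ifna4, an IFNα subtype that IRF7 is known to activate, was at 0.368, 0.837 and 0.83 FPKM in the mutant controls and 4.09, 3.91 and 4.83 FPKM in mutant IFNα, against 4.35, 2.19 and 1.73 FPKM in the wild-type controls and 6.06, 9 and 8.72 FPKM in wild-type IFNα. In each treatment all 3 mutant libraries lay below all 3 wild-type libraries, while mutant IFNα overlapped the wild-type controls. Ifna4 fell by 1.32 ± 0.298 on the log2 scale (SE, adjusted p = 0.0287). It passed only without mutant IFNα 3, wild-type control 1, 2 and 3 or else wild-type IFNα 1 among the 12 leave-one-out fits (−1.496 to −1.05). The IFNα genes are near-identical copies whose reads can be shared, so the value is uncertain. Ifnb1, the gene of interferon beta, was at 20.8, 17.9 and 19.9 FPKM in the mutant controls and 36.7, 36.8 and 34 FPKM in mutant IFNα, against 17.9, 16.3 and 13.4 FPKM in the wild-type controls and 24.2, 31 and 25.5 FPKM in wild-type IFNα. With IFNα the mutant libraries lay above the wild-type ones, and in the controls the lowest mutant and the highest wild-type library were level. Ifnb1 rose by 0.44 ± 0.113 (SE, adjusted p = 0.0496) and passed only when wild-type control 1 or else wild-type IFNα 2 was left out of the 12 leave-one-out fits (0.37 to 0.51).

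Of 78 antiviral interferon-stimulated genes tested, 9 rose and 1, Irf7, fell. Their median log2 fold change was 0.12 against −0.00 over all genes tested, and 56 values were positive. With library totals as scaling the median was 0.04 against −0.09 over all genes. It was 0.007 against −0.09 with limma on log2(FPKM + 1), and 0.04 against −0.01 in the 8 libraries with lung transcripts alone. Oasl1, an OAS-like protein known to restrain translation of Irf7 in mouse cells, was at 33.7, 35.1 and 37.8 FPKM in the mutant controls and 46, 40.9 and 62.5 FPKM in mutant IFNα, against 20.5, 26.4 and 26.4 FPKM in the wild-type controls and 26.5, 24.2 and 26.6 FPKM in wild-type IFNα. No mutant library was as low as the highest wild-type one, and the log2 fold change was 0.84 ± 0.117 (SE, adjusted p = 0.00147). Zbp1, a sensor of Z-form nucleic acids that can start necroptosis, was at 48.5 to 54.4 FPKM (median 50.9) in the mutant, against 26.1 to 38.3 FPKM (median 31.6) in the wild type, with 0.76 ± 0.106 (SE, adjusted p = 0.00147). Isg20, an exonuclease, was at 24.4 to 28.7 FPKM (median 27.1) in the mutant, against 15.4 to 20.9 FPKM (median 17.5) in the wild type, with 0.68 ± 0.0778 (SE, adjusted p = 0.000307). Phf11d, a PHD finger protein with close copies whose reads may be shared, was at 9.63 to 11.3 FPKM (median 10) in the mutant, against 4.87 to 7.87 FPKM (median 6.91) in the wild type, with 0.69 ± 0.119 (SE, adjusted p = 0.00647).

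The Mx GTPases, which block viral ribonucleoproteins, also rose. Mx2 was at 18.6 to 28.1 FPKM (median 22.5) in the mutant, against 13.8 to 17.8 FPKM (median 15.9) in the wild type, with a log2 fold change of 0.65 ± 0.0908 (SE, adjusted p = 0.00158). Mx1 was at 20.1 to 33.3 FPKM (median 25.1) in the mutant, against 13.2 to 25.2 FPKM (median 18) in the wild type, with 0.60 ± 0.0974 (SE, adjusted p = 0.00509). Oas1b, Ifit2 and Tap1 completed the 9, Oas1b and Ifit2 being named after their values were known, at 0.47 (adjusted p = 0.0126), 0.44 (adjusted p = 0.0294) and 0.37 (adjusted p = 0.0215), of which Oas1b passed in all 12 leave-one-out fits, Tap1 in 8 and Ifit2 in 3. Oas1b and Ifit2 have close copies and are uncertain for that reason. The most abundant member, the ubiquitin-like modifier Isg15, was at 3617 ± 146 FPKM in the mutant and 3087 ± 443 FPKM in the wild type (SD, n = 6 each) and did not pass (0.31 ± 0.117, adjusted p = 0.166). Ifit1 stood at −0.10 (adjusted p = 0.688), Rsad2, the antiviral enzyme viperin, at 0.03 (adjusted p = 0.927) and Usp18, a brake on the receptor, at 0.19 (adjusted p = 0.354). The 17 interferon-inducible GTPases had a median of 0.24. It was 0.0015 with limma, against −0.09 over all genes, and 0.06 in the 8 libraries with lung transcripts alone. Of the 17, 1 rose and 0 fell. That one, Tgtp1, was at 76.7, 62.2 and 79.3 FPKM in the mutant controls and 98.1, 91.7 and 85.3 FPKM in mutant IFNα, against 53.4, 42.3 and 44.1 FPKM in the wild-type controls and 59.1, 59.7 and 49.7 FPKM in wild-type IFNα. All mutant libraries lay above the wild-type ones, with a log2 fold change of 0.77 ± 0.0967 (SE, adjusted p = 0.000755). Its close copy Tgtp2 stood at 0.29 (adjusted p = 0.153), and reads of the pair may be shared.

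Sensors of nucleic acids were mixed, with 2 of 34 higher and 1 lower, at a median of 0.04, which was −0.04 with library totals. The higher ones were Zbp1 and Aim2, a sensor of DNA in the cytosol that signals through ASC. Aim2 was at 0.408 to 0.805 FPKM (median 0.707) in the mutant, against 0.0982 to 0.265 FPKM (median 0.215) in the wild type, with 1.73 ± 0.239 (SE, adjusted p = 0.00147), and passed in all 12 leave-one-out fits. The lower one was Pycard, the gene of ASC. Dhx58, a regulator of RNA sensing, stood at 0.35 (adjusted p = 0.0648).

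MHC class I molecules show peptides from inside the cell to CD8 T cells. Of 16 class I genes tested, heavy chains and B2m, 6 rose and 0 fell, and 14 values were positive. Their median log2 fold change was 0.41 against −0.00 over all genes tested, and 0.33 against −0.09 with library totals. H2-K1, a classical heavy chain, was at 103, 92.1 and 96.8 FPKM in the mutant controls and 114, 103 and 86.8 FPKM in mutant IFNα, against 77, 71.6 and 76.1 FPKM in the wild-type controls and 69.4, 59.1 and 62.2 FPKM in wild-type IFNα. The lowest mutant library lay above the highest wild-type library, and the log2 fold change was 0.62 ± 0.0875 (SE, adjusted p = 0.00158). H2-T22, a nonclassical chain seen by gamma delta T cells, was at 242 to 291 FPKM (median 257) in the mutant, against 165 to 222 FPKM (median 196) in the wild type, with 0.53 ± 0.0959 (SE, adjusted p = 0.00881). H2-M3, which presents formylated peptides, was at 1.1 to 1.85 FPKM (median 1.57) in the mutant, against 0.495 to 0.826 FPKM (median 0.752) in the wild type, with 1.15 ± 0.206 (SE, adjusted p = 0.00804). H2-K2 stood at 0.90 ± 0.165 (SE, adjusted p = 0.00907), H2-T23, the ligand of NKG2A, at 0.46 (adjusted p = 0.0177) and H2-T10, named after its values were known, at 0.58 (adjusted p = 0.0369). The call of H2-T23 was lost without wild-type IFNα 1, 2 and 3 (0.42 to 0.52 over the 12 leave-one-out fits), and H2-T10 passed in 4 of those fits. H2-D1 and B2m, the most abundant members, stood at 0.24 (adjusted p = 0.188) and 0.21 (adjusted p = 0.375). Class I genes are near-identical copies, so reads can be split between them and single values are uncertain.

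The immunoproteasome and the TAP transporter supply peptides to class I molecules. Of 18 genes of the immunoproteasome and peptide loading 3 rose and 0 fell, at a median of 0.08, which was −0.01 with library totals and −0.03 in the 8 libraries with lung transcripts alone. Tap2, a subunit of that transporter, was at 6.4 to 7.78 FPKM (median 6.67) in the mutant, against 4.16 to 6.14 FPKM (median 5.73) in the wild type, with 0.44 ± 0.0905 (SE, adjusted p = 0.0186), and was lost without mutant control 3 or else wild-type IFNα 1 and 2 (0.39 to 0.47 over the 12 leave-one-out fits). Its partner Tap1 stood at 0.37 (adjusted p = 0.0215) and was lost without mutant control 3, mutant IFNα 1 or else wild-type IFNα 2 and 3 (0.33 to 0.39 over the 12 leave-one-out fits). Psme1, a proteasome activator, stood at 0.35 (adjusted p = 0.0344) and passed only without mutant IFNα 3 or else wild-type control 2 among the 12 leave-one-out fits (0.30 to 0.39). Nlrc5, the transactivator of class I genes, stood at −0.17 (adjusted p = 0.552). In the MHC class II list 2 of 14 rose and 0 fell, at a median of 0.10. Cd74, the invariant chain, was at 11.1 to 20.8 FPKM (median 14.4) in the mutant, against 8.18 to 9.91 FPKM (median 8.91) in the wild type, with 0.82 ± 0.136 (SE, adjusted p = 0.00559). H2-DMb1, which helps load class II peptides, stood at 0.51 (adjusted p = 0.0191) and was lost without mutant IFNα 1 (0.44 to 0.55 over the 12 leave-one-out fits).

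Cd74, class II genes and some class I genes are also expressed by leukocytes. Of 19 leukocyte markers tested 1, Laptm5, rose at 0.42 (adjusted p = 0.0398), and 18 values were positive, at a median of 0.39. The summed level of 25 leukocyte markers was 125 to 205 CPM in the mutant and 116 to 165 CPM in the wild type. Cd3e of T cells was at 0 in 9 libraries and in all 6 of the mutant, while Ptprc, the pan-leukocyte CD45, was at 0.144 to 0.259 FPKM in the mutant and 0.133 to 0.205 FPKM in the wild type. Other markers were higher: Cd68 was at 9.4 to 14.7 FPKM in the mutant and 10.3 to 13.3 FPKM in the wild type. Csf1r was at 2.8 to 4.6 FPKM in the mutant and 2.18 to 3.46 FPKM in the wild type. The part of leukocytes in the class I and class II results was not tested. In bulk RNA more cells of a type and more RNA per cell cannot be told apart.

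**Figure D3:**
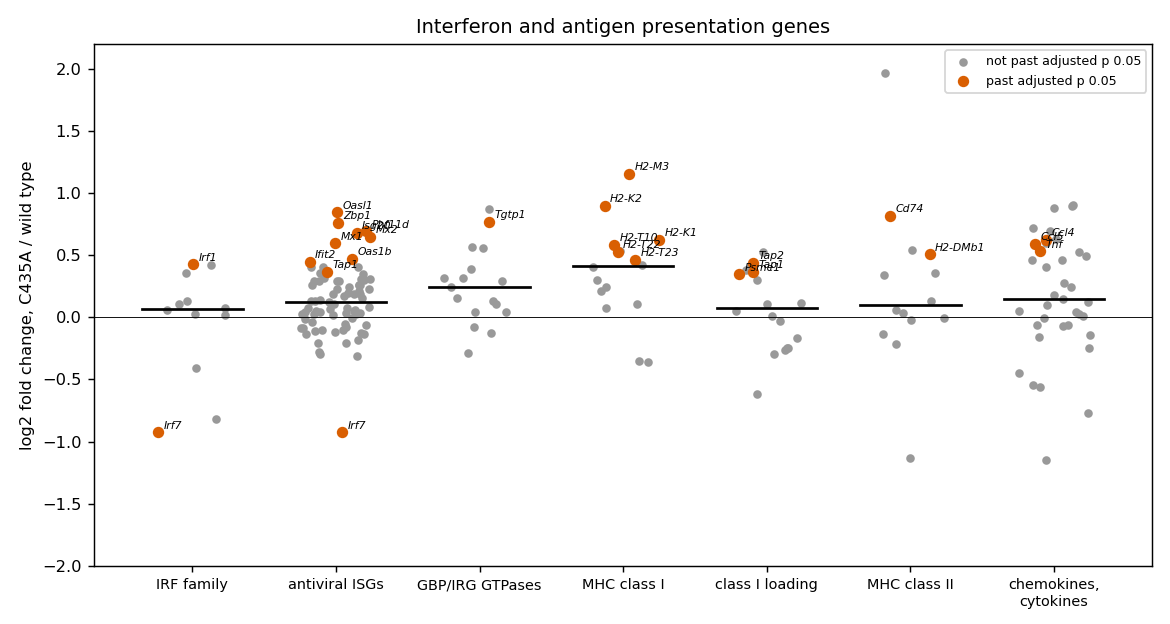
Log2 fold change of C435A over wild type for the tested members of 7 gene lists, with grey points for genes that did not pass and orange points, named, for those at an adjusted p under 0.05. The black line is the median of each list, highest for MHC class I at 0.41, and Irf7 lies at −0.93.

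Chemokines and cytokines had 3 of 37 members higher and 0 lower, at a median of 0.15. Ccl5, an attractant of T cells, was at 113, 115 and 118 FPKM in the mutant controls and 133, 125 and 81.2 FPKM in mutant IFNα, against 78.8, 86.7 and 85.8 FPKM in the wild-type controls and 78.1, 76.5 and 79.5 FPKM in wild-type IFNα. In each treatment the mutant libraries lay above the wild-type ones, but mutant IFNα 3 lay within the range of the wild-type controls. Ccl5 rose by 0.59 ± 0.102 (SE, adjusted p = 0.00647). Ccl4 and Tnf stood at 0.62 (adjusted p = 0.0404) and 0.53 (adjusted p = 0.0456). Ccl4 passed only without mutant IFNα 1 among the 12 leave-one-out fits (0.52 to 0.69), and Tnf only without mutant control 3 or else mutant IFNα 1 among the 12 leave-one-out fits (0.48 to 0.61). Cxcl10, an interferon-induced T-cell attractant, was at 179.5 ± 42 FPKM in the mutant and 193 ± 43.9 FPKM in the wild type (SD, n = 6 each) and did not pass (−0.01 ± 0.082, adjusted p = 0.972). Of 21 immune checkpoint ligands 1, H2-T23, rose, at a median of 0.25, and Cd274, which encodes PD-L1, stood at 0.32 (adjusted p = 0.134). The median of that list was −0.015 with limma on log2(FPKM + 1) and 0.26 in the 8 libraries with lung transcripts alone. In NF-kB subunits and feedback targets 0 of 27 passed by edgeR, at a median of 0.13, with Relb at 0.37 (adjusted p = 0.0954) and Nfkbie at 0.43 (adjusted p = 0.0767).

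Promoter sequences bear on whether the genes that moved share a motif for IRF factors. The motif searched was GAAA, any 2 bases and GAAA again, on either strand, with overlapping matches counted. RefSeq (GRCm38.p6) gives 300 bases, 250 before and 50 after a start, for 11643 of the tested genes (66.2%). The motif was in 3.77% of these genes, in 9 of 218 genes that rose (4.13%) and in 3 of 125 that fell (2.4%). Among the antiviral interferon-stimulated genes it was in 29 of 61 (47.5%), but in 0 of the 5 risen ones with a promoter given, and among risen class I genes in 2 of 4. A match is a description of letters, not a binding site. Only this exact spacing was searched, so a window without a match may still hold a site. Shown are the windows of Ifna4, which fell, of Tgtp1 and H2-T22, which rose, and of Isg15, the most abundant antiviral gene, which did not pass, with the matches in capitals.
Ifna4, chr4:88841566-88841865, plus strand: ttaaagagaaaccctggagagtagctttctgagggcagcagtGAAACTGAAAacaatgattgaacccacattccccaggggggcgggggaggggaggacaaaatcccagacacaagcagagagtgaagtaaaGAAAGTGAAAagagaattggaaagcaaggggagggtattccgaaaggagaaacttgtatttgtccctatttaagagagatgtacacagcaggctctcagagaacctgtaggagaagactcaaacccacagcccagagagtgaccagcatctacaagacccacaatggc
Tgtp1, chr11:48992197-48992496, minus strand: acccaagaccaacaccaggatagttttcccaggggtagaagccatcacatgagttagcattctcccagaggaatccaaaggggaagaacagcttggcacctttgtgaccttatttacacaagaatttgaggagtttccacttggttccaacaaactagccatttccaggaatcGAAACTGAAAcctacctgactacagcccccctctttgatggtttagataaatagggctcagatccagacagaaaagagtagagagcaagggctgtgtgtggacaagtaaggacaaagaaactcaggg
H2-T22, chr17:36042693-36042992, minus strand: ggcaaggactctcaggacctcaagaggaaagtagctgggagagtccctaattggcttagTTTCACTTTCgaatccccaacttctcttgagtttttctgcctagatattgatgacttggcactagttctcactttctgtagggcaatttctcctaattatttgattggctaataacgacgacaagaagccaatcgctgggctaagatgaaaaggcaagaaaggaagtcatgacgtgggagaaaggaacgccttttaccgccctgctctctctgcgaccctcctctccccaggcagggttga
Isg15, chr4:156200769-156201068, minus strand: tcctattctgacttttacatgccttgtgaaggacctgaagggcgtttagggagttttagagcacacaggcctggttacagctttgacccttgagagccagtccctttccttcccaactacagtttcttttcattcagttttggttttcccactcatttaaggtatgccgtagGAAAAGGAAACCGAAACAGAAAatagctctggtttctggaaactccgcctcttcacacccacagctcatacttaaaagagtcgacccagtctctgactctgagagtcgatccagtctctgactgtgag
Ifna4 held 2 matches, Tgtp1 and H2-T22 held 1 each, that of H2-T22 on the opposite strand, and Isg15 held 3 that overlap. Genes with a match thus occurred among those that fell, those that rose and those that did not pass. The windows of Irf7, which fell, and of Ifnb1, which rose, are not shown and held 0 matches.

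AP-1 factors, early-response transcription factors that include Batf, had 4 of 27 members higher and 0 lower, at a median of 0.04 that was −0.05 with library totals. Atf3, a stress-induced member, was at 25.4 to 37.9 FPKM (median 29.4) in the mutant, against 20.3 to 29.1 FPKM (median 25.5) in the wild type, with 0.38 ± 0.0696 (SE, adjusted p = 0.0095). Junb and Jdp2 stood at 0.37 (adjusted p = 0.0361) and 0.46 (adjusted p = 0.0484). Junb passed only without mutant IFNα 3 or else wild-type control 2 among the 12 leave-one-out fits (0.32 to 0.44), and Jdp2 only without mutant IFNα 3 among the 12 leave-one-out fits (0.33 to 0.51). ATF4 stress response targets had 4 of 41 higher and 0 lower, at a median of 0.09 that was −0.00 with library totals. Psph, of serine synthesis, stood at 0.47 (adjusted p = 0.0154) and was lost without wild-type IFNα 1 and 3 (0.39 to 0.52 over the 12 leave-one-out fits). Ddit3, the stress factor CHOP, stood at 0.36 (adjusted p = 0.0399) and passed only without mutant IFNα 3, wild-type control 1 or else wild-type IFNα 2 among the 12 leave-one-out fits (0.30 to 0.39). Ppp1r15a, which restores translation after stress, stood at 0.35 (adjusted p = 0.0474) and passed only without wild-type control 3 among the 12 leave-one-out fits (0.29 to 0.38).

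The series title also names nitric oxide, and of 31 genes that make nitric oxide or handle S-nitrosothiols, 3 rose and 1 fell, at a median of 0.00. Sod1, a superoxide dismutase, was at 153, 141 and 141 FPKM in the mutant controls and 125, 131 and 133 FPKM in mutant IFNα, against 108, 104 and 100.2 FPKM in the wild-type controls and 94.5, 97.9 and 106 FPKM in wild-type IFNα. The lines did not overlap, with a log2 fold change of 0.52 ± 0.0819 (SE, adjusted p = 0.00393). Txnip, an inhibitor of thioredoxin, was at 15.7 to 19.2 FPKM (median 16.2) in the mutant, against 9.23 to 16.6 FPKM (median 11.8) in the wild type, with 0.55 ± 0.0947 (SE, adjusted p = 0.00647). Txnrd2, the mitochondrial thioredoxin reductase, was at 10.9 to 15.7 FPKM (median 13.8) in the mutant, against 9.6 to 11.2 FPKM (median 10.6) in the wild type, with 0.48 ± 0.0979 (SE, adjusted p = 0.0163). Ddah1, which degrades natural inhibitors of nitric oxide synthases, was at 0.18 to 0.329 FPKM (median 0.235) in the mutant, against 0.389 to 0.632 FPKM (median 0.514) in the wild type, with −1.004 ± 0.196 (SE, adjusted p = 0.0133). Nos1, the neuronal synthase named in the title, was at no more than 0.0351 FPKM in any mutant library and 0.0232 FPKM in any wild-type library, and Nos3, the endothelial one, stood at −0.03 (adjusted p = 0.96).

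Of 33 NRF2 antioxidant targets tested 1, Nqo1, rose, 1, Akr1c13, fell, and 10 values were positive, at a median of −0.15 against −0.00 over all genes tested. Hmox1, heme oxygenase, was at 83.4 ± 10.2 FPKM in the mutant and 112 ± 13.2 FPKM in the wild type (SD, n = 6 each) and Gclm, of glutathione synthesis, at 3.42 ± 0.501 FPKM in the mutant and 4.78 ± 0.924 FPKM in the wild type. Neither passed, at −0.33 (adjusted p = 0.0538) and −0.38 (adjusted p = 0.0532). Of 30 genes tested in a list of glutathione transferases 0 rose and 1, Mgst1, fell, at a median of 0.02. That list also holds other genes: Gss, Gclc and Gclm of glutathione synthesis, and Ggt1, Ggt5 and Ggt7.

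In cholesterol biosynthesis 0 of 32 rose and 4 fell, 28 values were not positive, and the median was −0.19. Beside Sqle these included Idi1, an isomerase of the pathway, at −0.56 (adjusted p = 0.0416) and Scd2, a fatty acid desaturase, at −0.39 (adjusted p = 0.0416). Idi1 and Scd2 each passed in 2 of the 12 leave-one-out fits. In fatty acid handling 1 of 36 rose, Fabp3, and 1 fell, Mgll, at a median of −0.01. Of 30 genes of the PIKfyve complex and endolysosome 0 rose and 3 fell, at a median of −0.10. Beside Vac14 these included Npc1, the lysosomal cholesterol exporter, at −0.33 (adjusted p = 0.0398), which was lost in 9 of those 12 fits.

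Of 38 pigmentation genes 0 rose and 3 fell, and 5 values were positive, at a median of −0.17 that was −0.15 with the length trend of each library removed. Trpm1, a melanocyte ion channel, was at 14.7 to 23.6 FPKM (median 19.9) in the mutant, against 21.8 to 32.1 FPKM (median 25.1) in the wild type, with −0.34 ± 0.0801 (SE, adjusted p = 0.035), and passed only without mutant control 1, mutant IFNα 2 and 3 or else wild-type control 1 and 2 among the 12 leave-one-out fits (−0.38 to −0.31). Gpr143, the ocular albinism receptor of melanosomes, stood at −0.37 (adjusted p = 0.0408), and Met, the hepatocyte growth factor receptor, at −0.51 (adjusted p = 0.0492). Gpr143 passed in 2 and Met in 1 of the 12 leave-one-out fits. Mitf, the lineage's master regulator, stood at −0.25 (adjusted p = 0.211), Tyr, tyrosinase, at −0.31 (adjusted p = 0.137), Dct at −0.19 (adjusted p = 0.288) and Pmel at −0.11 (adjusted p = 0.496).

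Neural and mesenchymal genes moved in both directions. In the Schwann and neural crest list 1 of 27 rose and 2 fell, at a median of −0.11. The risen one was Sox2, a stem cell factor, at 0.134 to 1.06 FPKM (median 0.431) in the mutant, against 0.0512 to 0.24 FPKM (median 0.131) in the wild type, with 1.95 ± 0.369 (SE, adjusted p = 0.011), and lost without mutant control 3 (1.62 to 2.11 over the 12 leave-one-out fits). The fallen ones were Mbp and Nes. Of 40 neuronal genes 2 rose and 6 fell, at a median of −0.13. In the 8 libraries with lung transcripts alone the median of the neuronal list was 0.19 and that of the Schwann and neural crest list 0.05. Dpysl3, a regulator of growth cones, was at 0.547 to 0.975 FPKM (median 0.698) in the mutant, against 1.34 to 2.07 FPKM (median 1.5) in the wild type, with −1.03 ± 0.142 (SE, adjusted p = 0.00146). Sv2a, a synaptic vesicle protein, was at 0.514 to 0.835 FPKM (median 0.652) in the mutant, against 1.27 to 1.71 FPKM (median 1.41) in the wild type, with −1.04 ± 0.134 (SE, adjusted p = 0.000895). Tubb3, neuronal tubulin, was at 54.1 to 64.7 FPKM (median 60.6) in the mutant, against 77.8 to 98.7 FPKM (median 84.2) in the wild type, with −0.44 ± 0.0765 (SE, adjusted p = 0.00686). Named after their values were known, Epha7 and Stmn4 stood at −1.003 (adjusted p = 0.0272) and −0.67 (adjusted p = 0.0451), and the risen Scg2 and Celf4 at 1.77 (adjusted p = 0.0238) and 1.84 (adjusted p = 0.0163), all at a mean of at most 1.09 FPKM in either line.

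In the mesenchymal and dedifferentiated melanoma list 2 of 45 rose and 2 fell, at a median of 0.00. Tnc, the matrix glycoprotein tenascin C, was at 0.478 to 1.83 FPKM (median 1.14) in the mutant, against 0.24 to 0.583 FPKM (median 0.381) in the wild type, and rose (adjusted p = 0.00718). Fn1, fibronectin, was at 3.65 to 5.62 FPKM (median 5.01) in the mutant, against 2.84 to 3.91 FPKM (median 3.13) in the wild type, with 0.66 ± 0.113 (SE, adjusted p = 0.00647). Vim, vimentin, was at 87.6 to 113 FPKM (median 107) in the mutant, against 125 to 180.5 FPKM (median 142) in the wild type, with −0.41 ± 0.0907 (SE, adjusted p = 0.0248), and was lost without mutant control 1 and 3, mutant IFNα 2 or else wild-type IFNα 1 (−0.46 to −0.37 over the 12 leave-one-out fits). Sparc, a matrix glycoprotein, stood at −0.34 (adjusted p = 0.036) and was lost in 8 of the 12 leave-one-out fits. Of 35 collagen chains 0 rose and 2 fell, Col16a1 at −0.51 (adjusted p = 0.0175) and Col11a2 at −0.56 (adjusted p = 0.0207), at a median of −0.07 that was 0.01 with the length trend removed and 0.14 in the libraries with lung transcripts alone.

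In mitosis and chromosome segregation 14 of 70 values were positive, at a median of −0.17. Of the 70, 1 rose and 1 fell (2.86% called, against 2.75% over all genes tested). These were Cdca3, a mitotic entry factor, at 0.37 (adjusted p = 0.0302) and Tpx2, a spindle factor, at −0.36 (adjusted p = 0.0361), and each passed in at most 5 of the 12 leave-one-out fits. In DNA replication 3 of 63 rose and 1 fell, at a median of −0.06. Chaf1b, a histone chaperone subunit, was at 18.2 to 22.5 FPKM (median 19) in the mutant, against 13.8 to 17 FPKM (median 16.5) in the wild type, with 0.42 ± 0.0727 (SE, adjusted p = 0.00673), and Cdc45, of the replicative helicase, stood at 0.37 (adjusted p = 0.00647). Rfc3 and Brca1 stood at 0.29 (adjusted p = 0.0492) and −0.46 (adjusted p = 0.03). Mki67, the proliferation marker, stood at −0.17 (adjusted p = 0.591). Oxidative phosphorylation had 3 of 84 higher and 0 lower (3.57% called, against 2.75% over all genes tested), and 67 values were positive. Its median was 0.15, which was 0.09 with the length trend removed and −0.01 in the 8 libraries with lung transcripts alone. Ndufb4 was at 168 to 211 FPKM (median 182) in the mutant, against 99.3 to 147 FPKM (median 141) in the wild type, with 0.60 ± 0.135 (SE, adjusted p = 0.0278), Atp5j, an ATP synthase subunit, stood at 0.33 (adjusted p = 0.0193) and Cox4i1 at 0.40 (adjusted p = 0.0492). Ndufb4 was lost without mutant control 1, 2 and 3, mutant IFNα 1 or else wild-type IFNα 1 (0.49 to 0.65 over the 12 leave-one-out fits), and Cox4i1 passed in 0 of those fits. Glycolysis and hypoxia genes had 1 of 44 higher and 0 lower (2.27% called, against 2.75% over all genes tested), at a median of −0.06. The one was Aldoc, an aldolase, at 0.66 ± 0.105 (SE, adjusted p = 0.00438). In melanoma drivers and tumour suppressors 0 of 47 and in Id proteins and BMP-SMAD targets 0 of 25 passed by edgeR, at medians of −0.06 and −0.10. In the 8 libraries with lung transcripts alone the median of the driver list was 0.03 and that of the glycolysis list 0.04. Id1, a known BMP target, stood at 0.23 (adjusted p = 0.424), and its relative Id3 stood at 0.34 (adjusted p = 0.109).

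**Figure D4:**
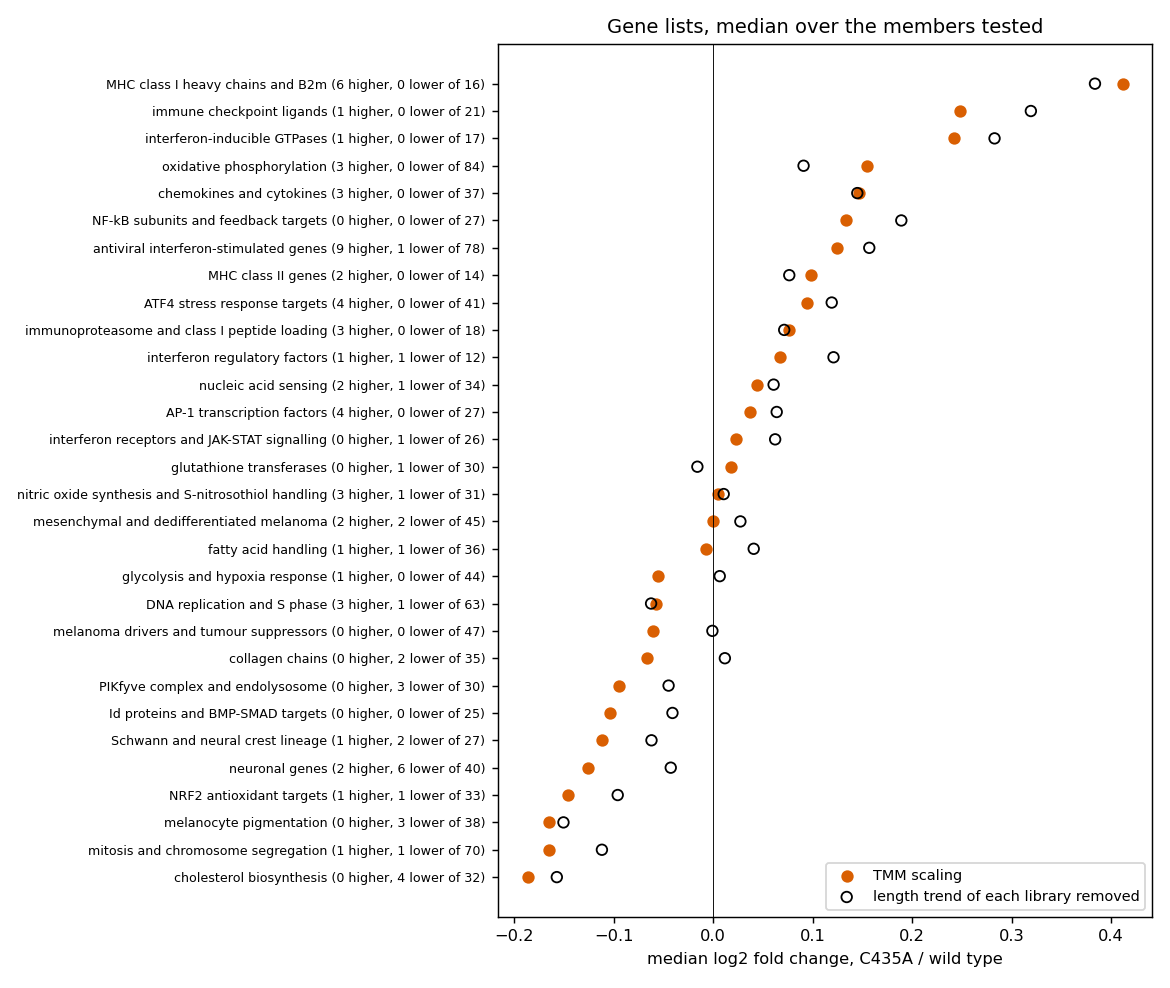
Median log2 fold change of C435A over wild type for each gene list with at least 5 members tested, leaving out the marker lists of other cell types, with the calls in each direction beside its name. Filled points use TMM scaling and open circles have the trend with exon length of each library removed. Of the lists drawn both place MHC class I highest, at 0.41 and 0.38, and cholesterol biosynthesis lowest, at −0.19 and −0.16.

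Genes with a shorter exon length tended to have higher values in the mutant. Across 7257 genes the Spearman correlation of the log2 fold change with exon length was −0.395, and it was −0.349 in the controls alone and −0.316 with IFNα alone, where genes are not independent replicates. With the length trend of each library removed, a step added after the data were seen, 459 genes passed, of which 368 were among the 483. There 320 were higher and 139 lower. Irf7 stood at −0.90, Nqo1 at 3.37, Fabp3 at 1.72 and Pycard at −4.20, and all passed. In that fit 74 of the 89 named genes called still passed and 15 did not. Higher calls went from 3 to 1 among chemokines and cytokines and from 9 to 11 among antiviral genes. They stayed at 6 in MHC class I. The neuronal median went from −0.13 to −0.04, and that of chromosome 16 from 0.21 to 0.23. The cause of the length trend was not tested.

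Along chromosome 16 most genes had higher values in the mutant. Of its 540 genes tested, 52 rose (9.63%) and 1 fell, against 1.8% and 0.949% over all genes, and 78% of values were positive. The median log2 fold change was 0.21 against −0.00 over all genes tested, 0.21 in the controls alone and 0.16 with IFNα alone. Per library, over 380 of these genes, the median log2 ratio to the wild-type mean was 0.216, 0.182 and 0.178 in the mutant controls and 0.203, 0.235 and 0.173 in mutant IFNα. For the wild type the controls stood at −0.018, −0.0349 and 0.0119 and the IFNα libraries at 0.052, −0.0108 and 0.00185. Every mutant library lay above every wild-type library, while over 12040 genes of other chromosomes the same value ran from −0.0406 to 9.49e-05 in the mutant and from −0.00746 to 0.0252 in the wild type. All 10 windows of 10 Mb along it, a division chosen after seeing the data, had a positive median, from 0.09 to 0.27. In the 8 libraries with lung transcripts alone the window from 80 to 90 Mb stood at −0.04, and the other windows stayed positive. With limma on log2(FPKM + 1) the chromosome's median was 0.07 against −0.09 over all genes, and in the 8 libraries with lung transcripts it was 0.20.

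The genes of chromosome 16 included 9 named above: Mx1, Mx2, Sod1, Txnrd2, Apod, Cdc45, Chaf1b, Ndufb4 and Atp5j. Their part in their lists' counts is thus 2 of the 9 risen antiviral genes, 2 of the 3 risen nitric oxide genes, 2 of the 3 risen replication genes and 2 of the 3 risen oxidative phosphorylation genes. Ifnar1 and Ifnar2 lie on the same chromosome and did not pass. Chromosome 17, which holds the H2 genes of the class I and class II lists, had 32 of 890 genes higher (3.6%) and 3 lower, at a median of 0.06.

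**Figure D5:**
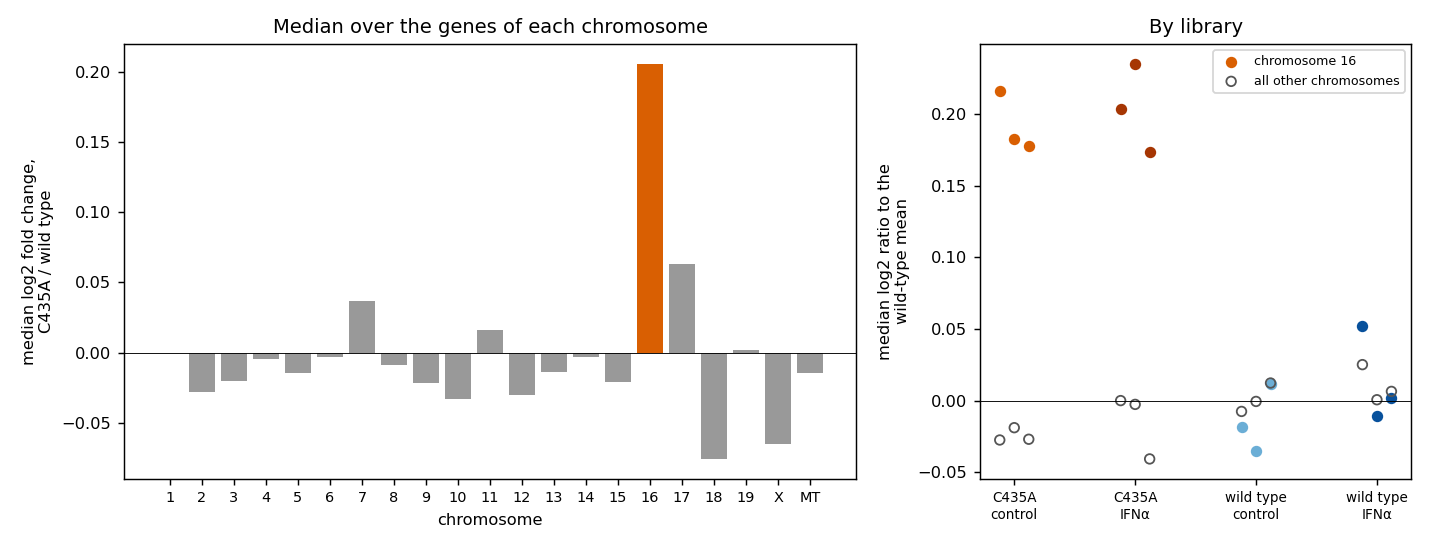
Left, the median log2 fold change of C435A over wild type over the tested genes of each chromosome, with chromosome 16 in orange at 0.21. Right, the median log2 ratio to the wild-type mean in each library, with filled points for chromosome 16, which lie at 0.173 to 0.235 in the C435A libraries, and open circles for all other chromosomes.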

How the data were processed

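RNA of 12 B16F10 libraries was extracted with Trizol, poly(A)-selected, strand-marked with dUTP, given unique molecular identifiers and sequenced in pairs on a NovaSeq, per the labels' protocols. Named without roles in the submitters' processing notes are the build GRCm38 and the tools edgeR, DESeq2, StringTie 1.3.4d, HISAT2 2.0.4, cutadapt 1.9 and UMI-tools. The authors deposited a table with a count and an FPKM value (fragments scaled to transcript length and library size) per gene and library, per the file headers; how fragments were counted, and with which strand setting, is not given. Counts from 1 to 30 were multiples of 4 in 33.6% of cases, against 23.3% of whole numbers in that range.

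The counts were fitted with edgeR 4.0.16 (R 4.3.3): TMM scaling, filterByExpr (17590 of 27503 rows kept), and the quasi-likelihood test of genotype with IFNα as covariate, adjusted by Benjamini-Hochberg and called under 0.05. SEs are the log2 fold change over the square root of F. The single-treatment fits used 6 libraries each. DESeq2 1.42.0 and limma 3.58.1 on log2(FPKM + 1) or log2(FPKM + 0.1) were alternatives. The procedure was tested on simulated data. Depth was 60511573 to 75927461 counts a library, and intervals from counting were not used because replicates give the error. Exon lengths and the Irf7 codon came from GENCODE vM21 and promoters from RefSeq.

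Genes were named by a rule: among calls with a mean of at least 5 FPKM in the higher line and no overlap between lines, the 15 largest increases and 15 largest decreases, plus up to 4 members of each of 37 lists by adjusted p and a list of always-named genes. Members and lists were chosen with earlier results of these data known. A few members of the lists are not reported here by name and stay in the counts.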

Additional observations from a re-analysis of the deposited data

How the results depend on the processing

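Of the named genes that passed, none reversed under the alternatives run, which were not tabulated for the other called genes. The balance between higher and lower calls did turn under some of them. Against 483 genes called, 316 higher and 167 lower in the mutant, DESeq2 called 1146 (690 higher, 456 lower) and no filter on low counts 304 (197 and 107). More genes were lower than higher in the 8 libraries with lung transcripts alone (109 higher and 119 lower of 228). Library totals as scaling gave 174 higher and 213 lower. With limma 208 were higher and 259 lower on log2(FPKM + 1), and 207 and 264 on log2(FPKM + 0.1). Against 91 called genes of at least 2-fold, the counts were 153 with DESeq2, 12 with a mean of at least 5 FPKM, and 9 and 36 with limma. Irf7 did not pass in the lung-transcript libraries alone (−0.71, adjusted p = 0.0839). As a contrast in the fit of 4 groups IFNα alone gave 105 calls, and DESeq2 gave 15 interactions. Leaving out 1 library gave 200 to 544 calls (142 to 359 higher, 58 to 185 lower), 64 to 84 of at least 2-fold, −1.07 to −0.86 for Irf7, 10 to 208 calls in the controls and 7 to 139 with IFNα. In the fits with 208 and 139 calls, line and lung transcripts cannot be told apart. With the replicate number as a block 318 genes passed, 106 lower, and 16 in the controls alone, but the numbers did not pair the samples: 8 of 18 same-numbered pairs correlated over 0.1, and 5 of 12 libraries correlated best with their own number. Of 89 named genes called, 34 passed in the lung-transcript libraries alone and 89 with DESeq2, and 0 reversed under any alternative. The causes of these changes were not tested. Genes near the threshold are limited by 6 libraries a line and a common biological variation of 30.1%, and low genes by their counts.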
